A study of Mus musculus with 5 samples.

Results

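Transcript levels of 8 receptor tyrosine kinase genes were compared across cells that carried different FLT3-ITD constructs. The genes were Flt3, the related VEGF receptor gene Flt1, the TAM receptor genes Axl, Mertk and Tyro3, the insulin and insulin-like growth factor receptor genes Insr and Igf1r, and Met, the receptor gene for hepatocyte growth factor. They were chosen by symbol, and each probe set that the platform annotation assigns to one of them alone was included. This gave 20 probe sets for 8 of the 18193 genes on the array with a probe set of their own. No further probe set named a member together with another gene. The cells were 32D, a mouse myeloid progenitor line that normally grows on interleukin-3. All were stably transduced with a retrovirus for FLT3-ITD, the receptor with an internal tandem duplication that signals without ligand, and the constructs were labelled ITD78, ITD598, ITD602, ITD611 and ITD613. Every culture had been starved for 3 h and then treated with a tyrosine kinase inhibitor for 1 h. The labels give neither the inhibitor, nor the meaning of the construct numbers, nor whether FLT3 was of human or mouse origin, nor whether a culture was 1 clone. Cells without a construct or without the inhibitor were not analysed here.

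Receptor tyrosine kinases are single-pass membrane proteins that phosphorylate themselves and docking proteins when a ligand brings the chains together. In blood progenitors, FLT3 and other class III receptors drive survival and proliferation, and the TAM receptors, which bind Gas6 and protein S, are best known from macrophages, where they serve the uptake of dying cells. The insulin-like growth factor receptor feeds the PI3K and AKT pathway, and MET controls motility and growth in many epithelia.

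Each construct was measured on 1 array, so no difference could be tested and a fixed rule of size was used, a difference of at least 1 on the log2 scale, which is 2-fold. Levels are log2 RMA values, and the array medians lay between 1.99 and 2.06. Values up to 3.74 fall in a low range where 100 or more probe sets of an array share 1 value, and between 23.7% and 30.3% of the probe sets of an array had such a shared value. A difference with 1 side in this range has a direction but no reliable size. The ITD598, ITD602 and ITD611 arrays were the closest to one another in an earlier look at these data, so their mean served as the reference for ITD613 and ITD78, and the SD given with it is the spread of these 3 constructs and not of replicates. The label of ITD602 differs from those of the other 4 arrays in a string that may be a date, and for ITD602 whatever it stands for and the construct cannot be told apart. Of the progenitor markers, Ptprc (CD45, 7.41 to 8.999) and Myb (8.91 to 9.91) were high on all 5 arrays. Cd34 (0.64 to 0.67) and Cebpa (1.72 to 1.91), also progenitor markers, stayed in the low range. Kit (0.66 to 0.92), listed here as a mast cell marker, stayed there too.

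Across the constructs, Igf1r, Met and Axl differed most, and the other members read low or varied little. Igf1r was higher on the ITD613 and ITD78 arrays than on the other 3, by 1.70-fold and 1.65-fold on the probe set with its highest mean. Met was 2.97 lower (log2) on ITD613 and 2.85 lower on ITD78, where it read in the low range, and Axl was 1.19 lower on ITD613 and 0.62 lower on ITD78. Flt3, Flt1, Mertk and Tyro3 had no value above the low range on any array. Whether fewer transcripts per cell or fewer cells with the transcript underlie such differences cannot be told apart in bulk RNA.

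**Figure D1:**
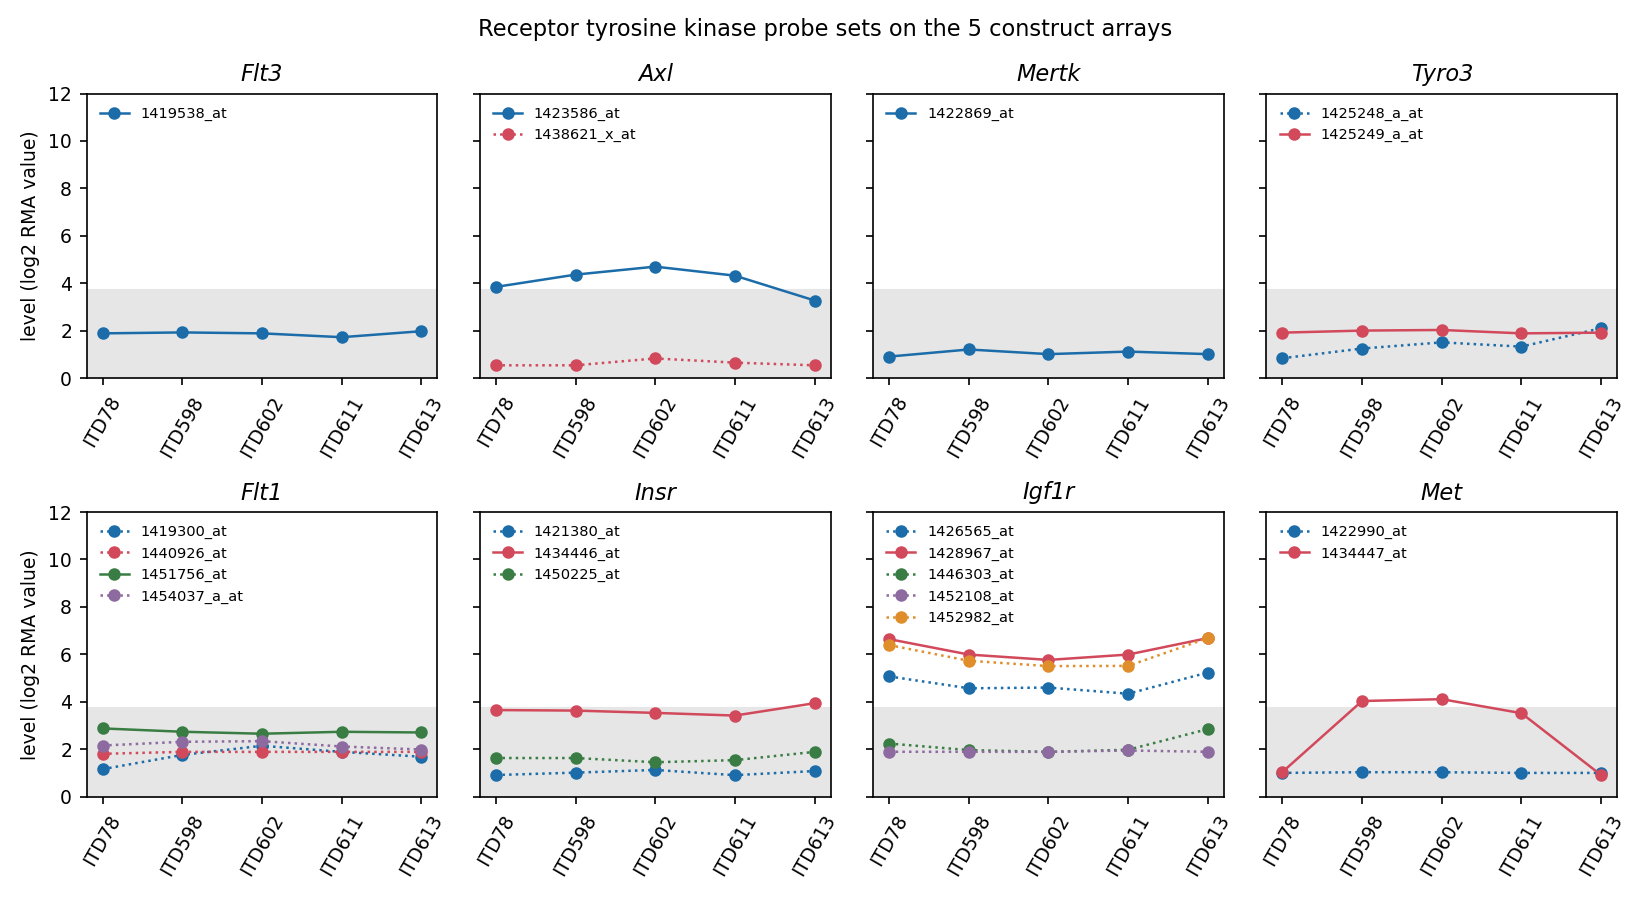
Log2 RMA level (vertical axis) of each of the 20 member probe sets on the 5 construct arrays (horizontal axis, which has no order); the solid line is the probe set with the highest mean of its gene, dotted lines are the gene's other probe sets, and the grey band is the low range up to 3.74. The 3 upper Igf1r probe sets lie above the band on every array and are highest on ITD613 and ITD78, where 1 Met probe set drops to 0.92 and 1.05.

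Because Axl and Met were low on the same arrays and Igf1r was high there, the 250 bases upstream of their annotated starts are shown, from the RefSeq promoter table of GRCm38.p6. That table matched 7 of the 8 members by symbol. Sequences run 5′ to 3′ on the gene's own strand. Both strands were searched for 6 motifs, and capitals mark their matches. TTCNNNGAA is bound by STAT factors, which the mutant receptor activates. The sequence GTAAACA is that of FOXO factors, which the kinase AKT keeps out of the nucleus. PU.1, a factor of myeloid cells, binds GAGGAAG. Erythroid and mast cell factors of the Gata1 family bind AGATAA. The promoter factor SP1 binds GGGCGG. The dimer of Fos and Jun proteins, AP-1, binds TGACTCA.
Axl promoter, chr7:25788734-25788983, minus strand: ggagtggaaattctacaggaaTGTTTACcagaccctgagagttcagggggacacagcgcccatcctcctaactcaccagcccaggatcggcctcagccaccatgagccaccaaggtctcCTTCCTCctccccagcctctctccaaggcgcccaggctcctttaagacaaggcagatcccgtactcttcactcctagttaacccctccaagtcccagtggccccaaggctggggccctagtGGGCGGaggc
Met promoter, chr6:17463707-17463956, plus strand: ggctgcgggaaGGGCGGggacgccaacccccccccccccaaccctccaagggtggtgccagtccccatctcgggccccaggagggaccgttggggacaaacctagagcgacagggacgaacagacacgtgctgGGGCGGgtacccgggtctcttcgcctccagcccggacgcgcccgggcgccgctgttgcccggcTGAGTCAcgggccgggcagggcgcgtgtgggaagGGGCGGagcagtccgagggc
Igf1r promoter, chr7:67952007-67952256, plus strand: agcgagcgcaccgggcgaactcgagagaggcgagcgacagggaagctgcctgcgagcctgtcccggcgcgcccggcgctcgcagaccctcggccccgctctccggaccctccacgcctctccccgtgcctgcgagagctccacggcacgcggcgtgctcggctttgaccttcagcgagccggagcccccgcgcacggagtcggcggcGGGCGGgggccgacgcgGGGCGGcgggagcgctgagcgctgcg

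The Axl window held 1 match to GTAAACA on the strand opposite to the one printed, 229 bases before the start, where 3.17% of all 32851 promoter windows of this length held that motif. It also held 1 match to GAGGAAG (10.6% of windows) and 1 to GGGCGG (32.7%). The Met window held 3 matches to GGGCGG and 1 to TGACTCA (4.46% of windows), and none of its matches overlapped. Igf1r held 2 matches to GGGCGG and no other motif of the 6. No window of the 3 matched TTCNNNGAA (7.02% of windows) or AGATAA (9.99%). The Met and Igf1r windows were rich in G and C, at 74.0% and 77.6%, and that of Axl at 60%, beside a median of 52.4% over all windows. Among the other members, the windows of Mertk, Tyro3 and Flt1 each held 3 matches to GGGCGG, and that of Flt1 also 1 to GAGGAAG. The Flt3 window held no match to any of the 6 motifs. These matches are descriptions of letters, and binding of any factor was not measured.

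Flt3, the mouse gene of the receptor that the constructs encode in mutant form, had 1 probe set (1419538_at). The labels do not show whether it could detect transcripts of the constructs. It read 1.90 on ITD78, 1.94 on ITD598, 1.90 on ITD602, 1.74 on ITD611 and 1.99 on ITD613. All values lay in the low range, and the range over the arrays was 0.25. The highest and the lowest arrays therefore cannot be separated. Of the other receptors of the same class, Kit (0.66 to 0.92), Pdgfra (1.78 to 2.10) and Pdgfrb (1.59 to 1.68) stayed in the low range, while Csf1r reached 3.96 on ITD598 and 2.54 on ITD613.

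Flt1, which encodes VEGF receptor 1, a receptor of endothelial cells and monocytes, had 4 probe sets, none of them above the low range. The probe set with the highest mean (1451756_at) read 2.89 on ITD78 and between 2.66 and 2.75 on the other 4 arrays. Another Flt1 probe set (1419300_at) went the other way on ITD78, at 1.17 against 1.69 on ITD613 and between 1.77 and 2.16 on the remaining 3. With opposite signs and levels this low, no order of the constructs can be given for Flt1. Kdr, the gene of the main VEGF receptor of vessels, read 2.72 on each array.

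Among the TAM receptors only Axl read above the low range. Its probe set 1423586_at read 3.85 on ITD78, 4.37 on ITD598, 4.71 on ITD602, 4.33 on ITD611 and 3.28 on ITD613. ITD602 was thus highest, ITD598 and ITD611 lay close together, ITD78 was below all 3, and ITD613 was lowest. Axl on ITD613 was 1.19 below the mean of ITD598, ITD602 and ITD611 (4.47 ± 0.21, SD, n = 3 arrays) and 1.05 below the lowest of them, and on ITD78 the corresponding distances were 0.62 and 0.47. Between ITD613 and ITD78 Axl differed by 0.57, so ITD613 was not 2-fold apart from every other array. The ITD613 value itself lies in the low range. With low values raised to 3.74, the Axl difference of ITD613 was -0.73. The other Axl probe set (1438621_x_at) read between 0.55 and 0.84 throughout and carries no information on the constructs.

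Mertk, the TAM receptor of efferocytosis in macrophages, read 0.92 on ITD78, 1.22 on ITD598, 1.02 on ITD602, 1.13 on ITD611 and 1.02 on ITD613, a range of 0.30 within the low values. Tyro3, the TAM receptor prominent in the nervous system, read between 1.90 and 2.04 on the probe set with its highest mean (1425249_a_at). Its other probe set (1425248_a_at) ranged from 0.85 on ITD78 to 2.11 on ITD613, with the other 3 arrays between 1.26 and 1.52. That span of 1.26 lies wholly in the low range and was not seen on the first Tyro3 probe set, whose ITD613 and ITD78 values were both 1.93.

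Igf1r was the best measured member. On the probe set with its highest mean (1428967_at) it read 6.65 on ITD78, 5.997 on ITD598, 5.77 on ITD602, 5.997 on ITD611 and 6.69 on ITD613. The arrays formed a high pair, ITD613 and ITD78, which differed by 0.04, and a lower group of 3. How many of all genes split the arrays this way was not counted. The lower group had a mean of 5.92 ± 0.13 (SD, n = 3 arrays). ITD613 stood 0.77 and ITD78 0.72 above it, more than the spread of the 3 constructs but under 2-fold. That spread comes from arrays picked as the closest to one another. ITD598 and ITD611 had exactly equal values, as did between 1.26% and 7.69% of the probe sets above the low range in the pairs of arrays.

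A second Igf1r probe set (1452982_at) read 6.40 on ITD78, 5.74 on ITD598, 5.51 on ITD602, 5.52 on ITD611 and 6.69 on ITD613. Here ITD613 was 1.10 above the mean of the lower 3 (5.59 ± 0.13), a 2.15-fold difference, and ITD78 was 0.81 above it. Another (1426565_at) read 5.08, 4.58, 4.61, 4.35 and 5.24 in the same order of arrays, with ITD613 0.73 and ITD78 0.57 above the mean of the lower 3. On each of these 3 probe sets both ITD613 and ITD78 lay above all of ITD598, ITD602 and ITD611, by gaps of 0.47 to 0.96. Of the remaining Igf1r probe sets, 1446303_at read 2.86 on ITD613, 2.25 on ITD78 and 1.90 to 1.99 elsewhere, in the low range, and 1452108_at stayed between 1.90 and 1.96.

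Insr, the insulin receptor gene and the closest relative of Igf1r among the members, varied less. Its probe set 1434446_at read 3.66 on ITD78, 3.64 on ITD598, 3.54 on ITD602, 3.43 on ITD611 and 3.95 on ITD613. Only the ITD613 value exceeded the low range, and it stood 0.41 above the mean of ITD598, ITD602 and ITD611 (3.54 ± 0.10, SD, n = 3 arrays), while ITD78 was 0.12 above it. A second Insr probe set (1450225_at) was also highest on ITD613, at 1.90 against 1.46 to 1.64 on the other arrays, and the last (1421380_at) stayed between 0.92 and 1.14 with ITD602 on top.

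Met had the widest range of the members, 3.20, wider than that of 99.7% of all genes. Its probe set 1434447_at read 1.05 on ITD78, 4.04 on ITD598, 4.12 on ITD602, 3.53 on ITD611 and 0.92 on ITD613. The arrays fell into 2 groups. ITD598, ITD602 and ITD611 lay at 3.90 ± 0.32 (SD, n = 3 arrays), and ITD78 and ITD613 differed by 0.13. The gap from ITD611 was 2.61 to ITD613 and 2.48 to ITD78. Only ITD598 and ITD602 lay above the low range, and with low values raised to 3.74 the difference was -0.23 on both ITD613 and ITD78. The Met difference therefore has a direction on this probe set but no reliable size. The other Met probe set (1422990_at) read 1.01 to 1.04 on all arrays and did not show the difference.

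**Figure D2:**
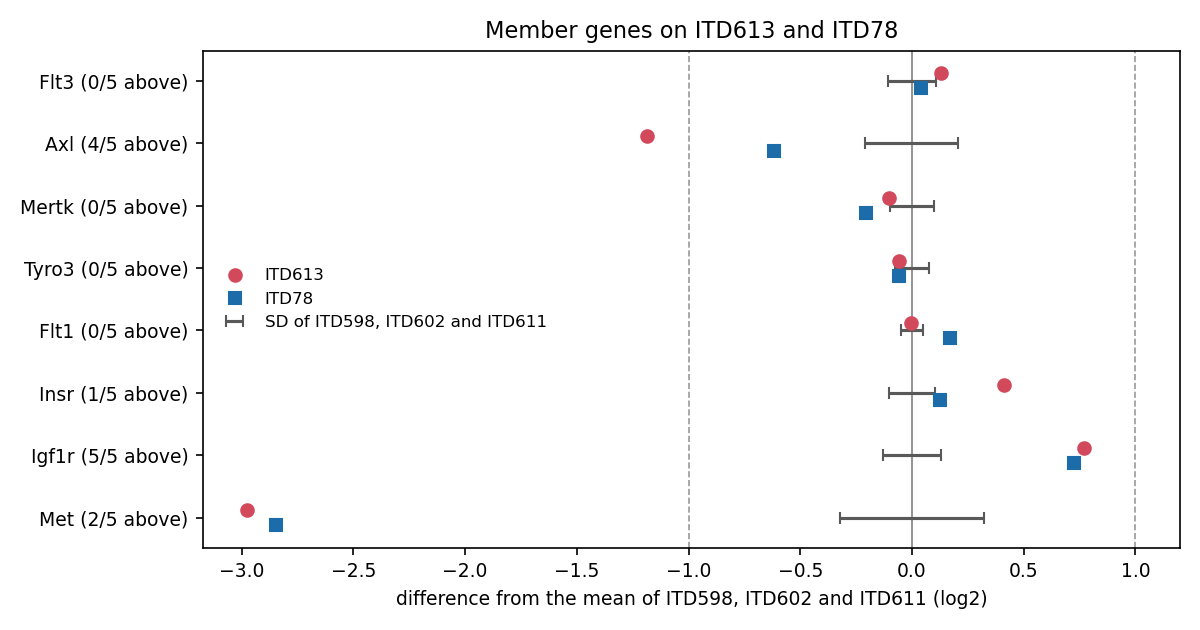
Difference (log2, horizontal axis) of the ITD613 array (circles) and the ITD78 array (squares) from the mean of ITD598, ITD602 and ITD611 for the 8 member genes, each by the probe set with its highest mean; bars are the SD of those 3 arrays around 0, dashed lines mark 2-fold, and the label gives how many of the 5 arrays lay above the low range. Met and Axl lie left of the bars and Igf1r right of them on both arrays. Insr also lies right of its bar, at 0.41 on ITD613 and 0.12 on ITD78, while Flt3, Mertk, Tyro3 and Flt1 lie between -0.20 and 0.17.

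By the 2-fold rule over the 5 arrays, 2 of the 8 member genes were called, Axl and Met, where the rule called 5.77% of all genes. With low values raised to 3.74 the count was 0, with each gene's probe sets averaged it was 1 (Met), and without the ITD613 array it was 1 (Met). Over single probe sets the count was 4 of 20, beside 5.73% of all probe sets, and without ITD613 it was 1. The 4 were those of Axl and Met named above, 1452982_at of Igf1r and 1425248_a_at of Tyro3. The median range was 0.41 over the member genes and 0.36 over all genes. The range of Met was wider than that of 99.7% of genes, of Axl than 97.7%, of Igf1r than 93.1% and of Insr than 74.2%, while those of Mertk (40.2%), Flt3 (31.1%), Flt1 (25.5%) and Tyro3 (11.2%) were below the middle. With 8 members the count was not compared further, and 5 of the member genes reached the 60th percentile of all values (2.75) on some array.

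ITD613 was at least 2-fold below the mean of ITD598, ITD602 and ITD611 for 2 members, Axl and Met, and for 1.62% of all genes. No member was 2-fold higher there, as 2.09% of genes were. ITD78 was at least 2-fold lower for 1 member, Met, and for 0.577% of genes, with no member among the 0.407% that were 2-fold higher. Both comparisons share their 3 reference arrays, so that an error in the reference would enter both. No member had 1 array at least 2-fold beyond all 4 others, in either direction, as 1.30% of genes had. For Axl and Met this rests on ITD78: without that array both were set apart on ITD613.

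In pairs of arrays, Axl and Met differed at least 2-fold between ITD613 and each of ITD598, ITD602 and ITD611, pairs in which 3.39%, 4.52% and 3.75% of genes did. Met alone did so between ITD78 and the same 3 arrays, where the shares of all genes were 0.841%, 1.43% and 0.923%. No member differed 2-fold between ITD613 and ITD78 (1.62% of genes), and the largest member difference in that pair was the 0.57 of Axl. Within ITD598, ITD602 and ITD611 no member differed 2-fold either, beside 0.154% (ITD598 and ITD602), 0.0715% (ITD598 and ITD611) and 0.126% (ITD602 and ITD611) of genes.

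**Figure D3:**
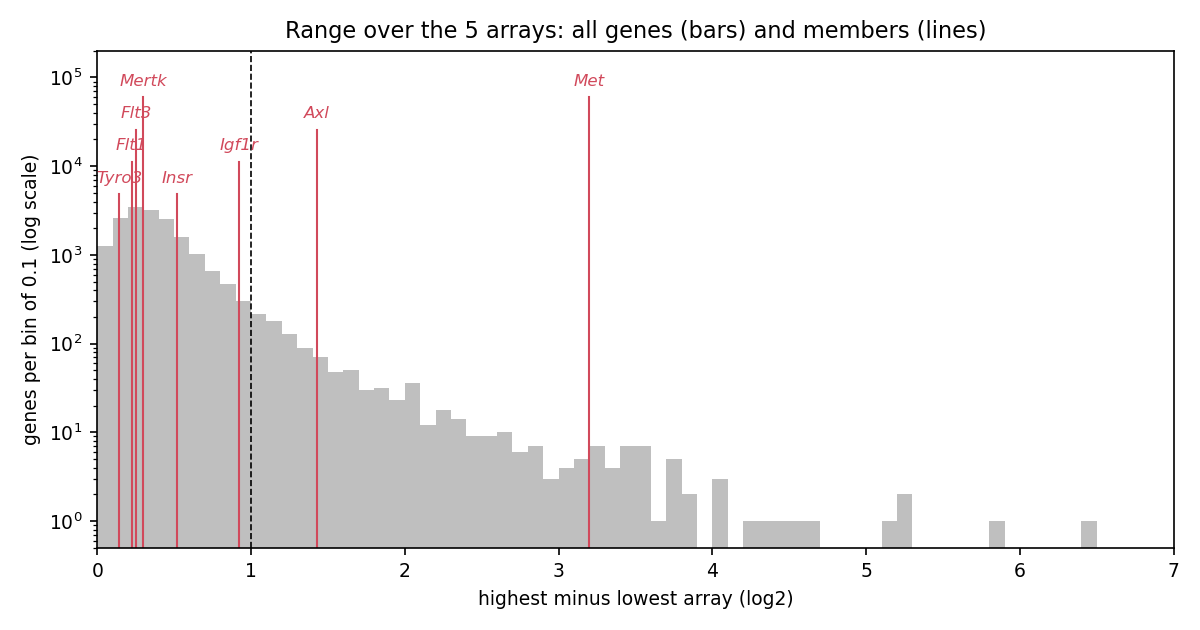
Number of genes (vertical axis, log scale) by the difference between their highest and lowest array (log2, horizontal axis, bins of 0.1) for all 18193 genes, with the 8 members as lines and the 2-fold limit dashed. Axl (1.43) and Met (3.20) lie beyond the limit, Igf1r (0.92) just short of it, and Tyro3 (0.14), Flt1 (0.22), Flt3 (0.25) and Mertk (0.30) far below it.

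Ligands and partners of these receptors, listed from textbook roles, were read by the same rule, which called 5.77% of all genes. For the TAM receptors, Gas6 (1.73 to 2.24) and Pros1, the protein S gene (1.70 to 1.95), stayed in the low range on all arrays. Of the 6 genes in the list 1 ranged at least 2-fold: Lgals3, the galectin-3 gene, reported as a ligand of MERTK and an adhesion protein of macrophages. Lgals3 read 5.10 on ITD78, 4.41 on ITD598, 3.73 on ITD602, 4.02 on ITD611 and 5.53 on ITD613. It was 1.47 above the mean of ITD598, ITD602 and ITD611 on ITD613 and 1.04 above it on ITD78, the opposite side from Axl. Lgals3 had 1 probe set, and its ITD602 value lay just inside the low range, so these differences have no reliable size. Adam10 and Adam17, the proteases that shed AXL and MERTK, were read on all arrays at 9.28 to 9.89 and 6.44 to 6.74.

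Of the 7 other ligand genes with a probe set, Vegfa, the gene of the FLT1 ligand VEGF-A, was the 1 that met the rule. Over all genes the share was 5.77%. Vegfa read 4.63 on ITD78, exactly 4.22 on each of ITD598, ITD602 and ITD611, and 3.63 on ITD613, with a range of 1.00. ITD78 and ITD613 thus lay on opposite sides of the other arrays. The ITD613 value lay in the low range, so that range has no reliable size. On the other Vegfa probe set ITD613 was again lower, whereas ITD78 was not higher. Hgf, the MET ligand gene, read 1.82 to 2.18, and Igf1 1.80 to 2.19, both in the low range.

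Among 19 genes whose products cut, bind or sort these receptors or their ligands, 2 ranged at least 2-fold, both lower on ITD613. The rule called 5.77% of all genes. Igfbp4, a secreted protein that binds insulin-like growth factors and limits their access to the receptor, read 7.12 on ITD78, 7.78 on ITD598, 8.03 on ITD602, 7.85 on ITD611 and 6.23 on ITD613. It was 1.66 below the mean of ITD598, ITD602 and ITD611 (7.89 ± 0.13, SD, n = 3 arrays) on ITD613 and 0.77 below it on ITD78, and each of its 6 probe sets had both signs. The second was Igf2r, named here after its values were seen, the receptor that takes up insulin-like growth factor 2 for degradation. All of its values, 2.16 on ITD613, 2.80 on ITD78 and 3.24 to 3.44 elsewhere, lay in the low range.

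Of 48 further receptor tyrosine kinase genes with a probe set, 1 ranged at least 2-fold, beside 5.77% of all genes. Only 6 had any value above the low range. That 1 was Csf1r, whose product receives the growth factor M-CSF in macrophages, at 3.16 on ITD78, 3.96 on ITD598, 3.66 on both ITD602 and ITD611 and 2.54 on ITD613. Only the ITD598 value exceeded the low range, and of the 3 probe sets of Csf1r 2 were lower on ITD613 and 1 on ITD78. The median range of the 42 receptors outside the class III and VEGF families was 0.33.

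Downstream, 1 of 28 adaptor and proximal effector genes ranged at least 2-fold, and 4 of 23 negative regulators did, with median ranges of 0.41 and 0.50 beside 0.36 over all genes. The effector was Fes, a cytoplasmic tyrosine kinase of myeloid cells, which read 4.47 on ITD78, 5.40 on ITD598, 5.57 on ITD602, 5.40 on ITD611 and 4.23 on ITD613. ITD613 and ITD78 were again the low pair, by 1.23 and 0.98 below the mean of the other 3. The 4 regulators were set by ITD613. Ptprc, the CD45 phosphatase gene, was 1.56 lower there, Sh2b3, the gene of the inhibitory adaptor LNK, 1.18 lower, and Ptpn6, the SHP-1 phosphatase gene, 1.13 lower. Ubash3b, the gene of a phosphatase that dampens receptor signals, was 1.67 higher. On ITD78 these differences were -0.65 for Ptprc, -0.09 for Sh2b3, -0.22 for Ptpn6 and 0.39 for Ubash3b. The ITD613 value of Sh2b3 (3.16) lay in the low range, so its difference there has no reliable size. In all, 10 of 131 genes in the 7 pathway lists were called, 7.63% beside 5.77% of all genes, and without the ITD613 array there were 2.

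Markers of other cell types differed between the same arrays and are given beside the member results. Of the 7 macrophage markers with a probe set, 3 were at least 2-fold lower on ITD613 than the mean of ITD598, ITD602 and ITD611 and 2 on ITD78, beside 1.62% and 0.577% of all genes. The mean level of the list was 2.02 on ITD613 and 2.32 on ITD78 against 3.17 to 3.35 on the other 3. The 4 markers that did not range 2-fold read in the low range on all arrays. Adgre1, the gene of a surface protein of mature macrophages, was 4.19 lower on ITD613 and 3.87 lower on ITD78. Fcgr1, the high-affinity IgG receptor gene, was 2.47 and 1.65 lower. Adgre1 on ITD613 and ITD78 (2.68 and 3.00) and Fcgr1 on ITD613 (3.06) read in the low range, so those differences have no reliable size. For Fcgr1, 1 of its 2 probe sets was lower on ITD78. These values lie on the same side as those of Axl and Met.

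Of the 6 erythroid markers with a probe set, Klf1 and Gata1, red cell transcription factor genes, were 2.97 and 2.08 higher on ITD613 and 1.40 and 0.95 higher on ITD78, the side of Igf1r, where 2.09% and 0.407% of all genes were 2-fold higher. Of the other 4, Tfrc, the transferrin receptor gene, was 0.44 and 0.11 higher, and Alas2 (1.33 to 1.74), Epor (3.08 to 3.24) and Hba-a1 (1.02 to 1.28) stayed in the low range without a 2-fold difference. The erythroid mean level was 5.65 on ITD613, 5.14 on ITD78 and 4.63 to 4.79 elsewhere. Of the 7 genes listed as mast cell markers, Cpa3 was 1.98 higher on ITD613 and 1.08 higher on ITD78. Fcer1a was 3.26 higher on ITD613 but 0.02 on ITD78, and Mcpt8 2.82 lower on ITD78 alone, with -0.02 on ITD613. The Cpa3 and Fcer1a reference values and Mcpt8 on ITD78 (2.90) lay in the low range, so these sizes are not reliable. Cpa3 on ITD78 (3.66) lay there too. The others, Ms4a2 (0.95 to 1.22), Tpsb2 (1.15 to 1.33), Cma1 (0.85 to 1.22) and Kit (0.66 to 0.92), stayed in the low range. The mast cell mean level was 2.60 on ITD613 and 1.71 to 1.97 on the other arrays. The progenitor genes Csf2rb2 and Csf2rb, beta chains of the interleukin-3 receptor, were 2.42 and 1.59 lower on ITD613 and 1.92 and 1.29 lower on ITD78. Mpo, the myeloperoxidase gene, was 0.74 below the reference mean on ITD613 and 1.40 below it on ITD78. The reference arrays themselves spread widely for Mpo (SD 0.81). Its ITD613 value (5.18) lay above its ITD611 value (5.00), so ITD613 was not apart from the reference arrays for Mpo. Myb, of the same list, went the other way, 0.88 higher on ITD613 and 0.32 higher on ITD78, with these signs on all 3 of its probe sets. Spi1, also of the progenitor list, was 0.896 lower on ITD613 and 0.586 lower on ITD78. Its ITD613 value (3.63) lay in the low range, so that difference has no reliable size. Il3ra, of the progenitor list too, stayed in the low range on all arrays, with a range of 0.19. The progenitor mean level was 4.91 on ITD613, 4.98 on ITD78 and 5.52 to 5.71 elsewhere. The 4 lymphoid and 6 stromal markers with a probe set stayed in the low range on all arrays. What part these shifts have in the receptor differences was not tested.

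**Figure D4:**
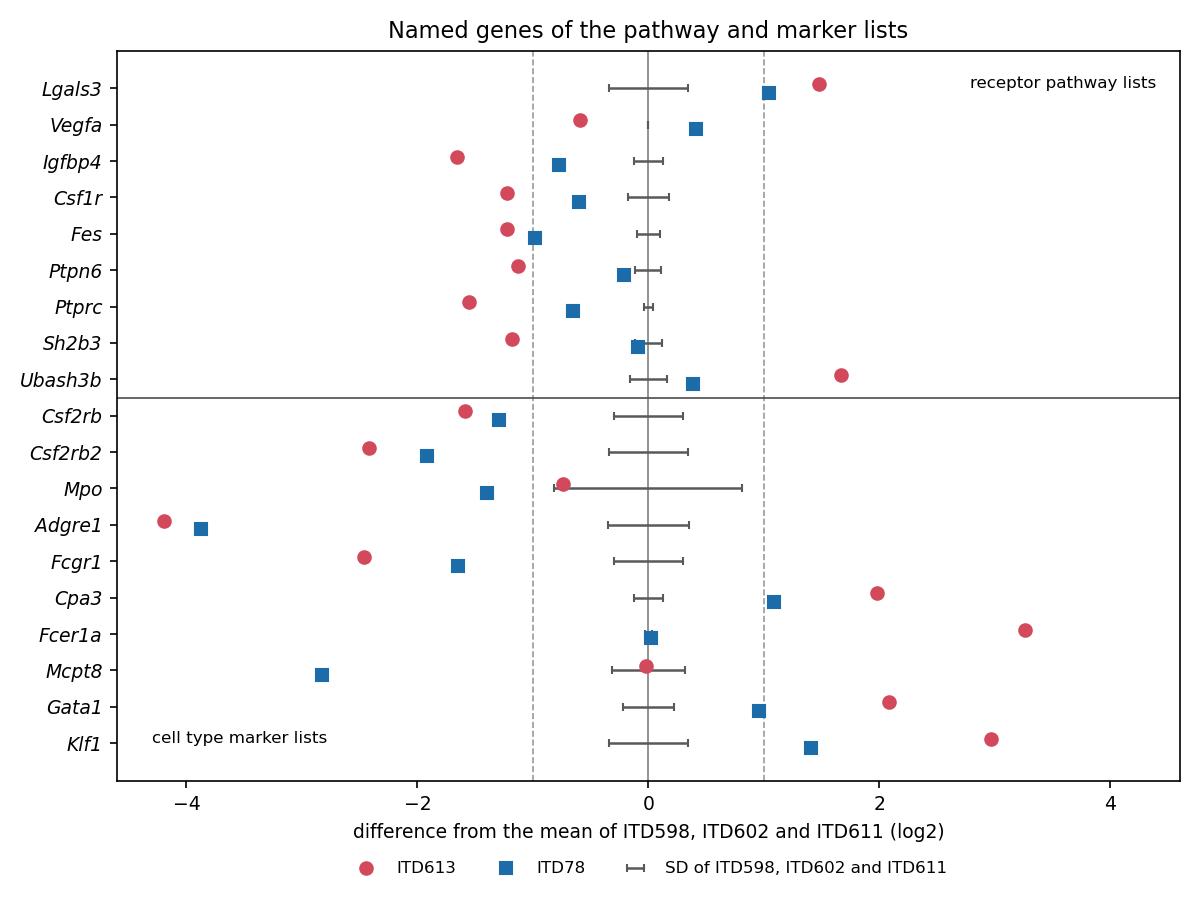
Difference (log2, horizontal axis) of ITD613 (circles) and ITD78 (squares) from the mean of ITD598, ITD602 and ITD611 for the genes named from the pathway lists (upper part) and the marker lists (lower part); bars are the SD of those 3 arrays around 0 and dashed lines mark 2-fold. Lgals3, Klf1, Gata1 and Cpa3 lie on the higher side on both arrays, and Adgre1, Fcgr1, Csf2rb2, Igfbp4 and Fes on the lower side.

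Genes with a similar pattern were taken from the 877 others that ranged at least 2-fold and had a value above the low range. They were ranked by the mean absolute difference of the 5 values after each gene was centred on its own mean. RIKEN clone genes and Gm and LOC gene models were counted among the 877 but passed over, and whether any lay closer is not reported. For Axl the closest of the remaining genes were Irak1bp1, with a mean absolute difference of 0.018 (log2), Mmd with 0.049 and Ptpn9, a tyrosine phosphatase gene, with 0.058. Irak1bp1 read 5.57 on ITD78, 6.11 on ITD598, 6.44 on ITD602, 6.11 on ITD611 and 4.99 on ITD613, with the highest and lowest arrays those of Axl. Of its 2 probe sets 1 was 2-fold lower on ITD613, as were 2 of 3 for Mmd and the only 1 of Ptpn9. For Met they were Acvr1, an activin receptor gene (0.26), Lgals1, the galectin-1 gene (0.27), and Ifitm1, an interferon-induced membrane protein gene (0.29). Lgals1 read well above the low range, at 8.69 on ITD78, 11.00 on ITD598, 11.24 on ITD602, 11.00 on ITD611 and 7.80 on ITD613. Ifitm1 read 6.22, 8.86, 9.74, 9.17 and 6.47 in the same order. For Acvr1, 1 of 3 probe sets was 2-fold lower on ITD613, and its values on ITD78 and ITD613 were both 0.86. Only its ITD602 value (3.75) lay above the low range, with 3.07 on ITD598 and 3.37 on ITD611. The Mmd values on ITD613 (2.97) and ITD78 (3.70) lay in the low range as well. The differences of Acvr1 and Mmd therefore have no reliable size.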

How the data were processed

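RNA of 32D cells was measured on Affymetrix mouse expression arrays, 1 for each of 5 constructs, per the labels. The deposited log2 values were made by the authors with RMA, per the submitters' processing notes (release not given in the sources used here). That they are log2 was inferred from their span (-0.07 to 13.45), and their zero point is unknown.

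Of 45101 probe sets, 64 controls, 932 with several symbols in GEO's platform annotation and 9160 not listed there were left out of gene counts, which left 34945. Of these 34741 matched RefSeq gene IDs (GRCm38.p6, for names), and 0 were renamed. The probe set with the highest mean stood for its gene. No low-value filter was used.

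Without replicates there were no residual degrees of freedom, and precision is limited by 1 array per construct. The named genes were all members, up to 4 genes per list with the widest range (at least 2-fold, above 3.74) and, for members ranging 2-fold, the 3 closest profiles. RIKEN clone genes and Gm and LOC gene models were passed over in both choices. Members, lists and the reference arrays were chosen with earlier results of these data known. The size rules were run on simulated data with planted shifts well above 2-fold and without shared low values. That run checked the code and not the rules at low levels. Python 3.11.15, pandas 2.3.3 and numpy 2.4.6 were used.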

Additional observations from a re-analysis of the deposited data

How the results depend on the processing

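Leaving out probe sets ending in _x_at or _s_at, keeping only probe sets that reached the 60th percentile, and centring the arrays on their medians left each count of members and list genes within 1.5 times. With low values raised to 3.74, 1 member probe set (of Igf1r) and 0 member genes ranged at least 2-fold, 0 members were 2-fold lower on ITD613 and 0 on ITD78, and 6 list genes ranged at least 2-fold. With each gene taken as the average over its probe sets, 1 member gene (Met) ranged at least 2-fold and 1 was 2-fold lower on ITD613. Leaving out each array in turn gave 1 to 4 member probe sets and 1 to 2 member genes ranging at least 2-fold, with 1 of each when ITD613 was left out. It gave 0 to 2 members set apart, with 2 without ITD78 and 1 without ITD613. It gave 2 members lower on ITD613 throughout, 1 lower on ITD78 throughout, and 2 to 10 list genes, with 2 without ITD613. Of 215 recomputed ranges and differences of single members, 174 stayed within the SD of ITD598, ITD602 and ITD611 of that gene. Of the values at or above 2-fold 0 changed sign, and 6 smaller ones did. Many of the 174 could not change. The 24 values without _x_at or _s_at probe sets and the 15 with the 60th percentile filter kept the same probe set per gene. Leaving out ITD78 or ITD613 also cannot change the difference of the other from the reference. The tally is therefore no measure of stability. No paired analysis was possible because each construct has 1 array and no result comes from a test. Low signal limits every member except Igf1r, since the differences of Flt3, Flt1, Mertk, Tyro3, Insr, Axl and Met lie wholly or partly in the range of shared values. With low values raised, the ITD613 difference was 0.21 for Insr and -0.73 for Axl.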

Other observations

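The genes in this paragraph were picked after their values were seen, and none met the 2-fold rule. Igf2, the gene of a ligand of this receptor, read 6.75 on ITD78, 6.34 on ITD598, 6.38 on ITD602, 6.23 on ITD611 and 6.78 on ITD613, above the low range on every array. ITD613 and ITD78 were 0.46 and 0.44 above the mean of the other 3 (6.32 ± 0.08, SD, n = 3 arrays), less than 2-fold. Both Igf2 probe sets had these signs. Socs2, the gene of a STAT5-induced feedback inhibitor, read 7.19 on ITD78, 6.86 on ITD598, 6.83 on ITD602, 6.86 on ITD611 and 7.28 on ITD613, with both signs shared by all 6 of its probe sets. The docking protein genes Irs1 (0.93 to 1.37) and Irs2 (1.22 to 1.45) read in the low range throughout.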
